A study of Cavia porcellus with 72 samples.

Results

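Exon and transcription end windows are stretches of guinea pig genome listed for a methylation difference between betamethasone and vehicle descendants. These windows lay in an exon or near the end of a transcript. Their hippocampal DNA came from female Dunkin-Hartley guinea pigs of 3 generations (F1, F2 and F3), killed on postnatal day 40. The pregnant F0 mothers had been given betamethasone, a synthetic glucocorticoid (sGC), in repeated courses late in gestation, or vehicle (control), and the line was carried on through the fathers. By their labels, 6 control and 6 sGC animals were profiled for methylation in each generation, whereas the series' design text counts 7 control and 5 sGC animals for F3. DNA was enriched with probes against promoter and enhancer regions, treated with bisulfite and sequenced.

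Each table lists windows of 100 bases placed every 50 bases on the scaffolds of the cavPor3 assembly. Members were all windows that the annotation tool HOMER had put in its exon class or its transcription termination site (TTS) class. They numbered 2511 of 53723 listed windows in F1, 2002 of 41660 in F2 and 1934 of 46788 in F3, or 6447 of 142171 over the 3 tables. Because some positions recur, the 6447 windows stand for 5714 distinct positions, 3196 in the exon class and 2518 in the TTS class. Every listed window had a group difference of at least 2 percentage points, and the number of windows that were measured but not listed is unknown. Whether this difference was the listing rule is not known. The authors called far fewer differentially methylated regions, under a larger minimum difference and a false discovery limit. The tables hold no value per animal, so the spread between animals is unknown, and the values below are counts and places of listed windows, with no test between control and sGC animals. The size and direction of the methylation differences were not analysed here.

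In vertebrate genomes most methylation sits on cytosines followed by guanine (CpG). Promoters rich in CpGs are usually unmethylated and the bodies of transcribed genes are usually methylated, exons often more than the introns beside them. A transcript end marks where the messenger is cleaved. HOMER gives each window 1 class only, and ranks promoter and TTS ahead of exon, so an exonic window near a transcript end is counted as TTS. The span of the TTS class around the transcript end is not given with the windows, so a TTS window need not lie inside the transcript.

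The exon class held 1377 listed windows in F1, 1149 in F2 and 1041 in F3, and the TTS class held 1134, 853 and 893. These were small shares of each list. Exon windows made up 2.56% of all listed windows in F1, 2.76% in F2 and 2.23% in F3, and TTS windows made up 2.11%, 2.05% and 1.91%. Promoter windows took 4.54%, 4.66% and 4.20%, intron windows 26.9%, 28.9% and 25.6%, and intergenic windows 59.0%, 61.6% and 59.7%.

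The counts of the 3 generations rest on different sets of scaffolds. The F2 table covers 87 scaffolds, whereas the F1 and F3 tables cover 910 and 970, and all 87 are in each table. On these 87 scaffolds, exon windows numbered 1105 in F1, 1149 in F2 and 832 in F3, so the order of F1 and F2 was the opposite of that over all scaffolds. TTS windows there numbered 881, 853 and 686, which put F2 above F3, again the opposite of the order over all scaffolds. Listed windows of every class on the 87 scaffolds numbered 40857, 41660 and 34681. The whole F2 list thus also lay above those of F1 and F3 there, whereas over all scaffolds it was the shortest. These changes of order are therefore not particular to exon and TTS windows. Of the F1 exon windows 80.2% lay on the shared scaffolds, as did 77.7% of the F1 TTS windows. In F3 the shares were 79.9% and 76.8%. Of all listed windows, 76.05% in F1 and 74.1% in F3 lay on the shared scaffolds.

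**Figure D1:**
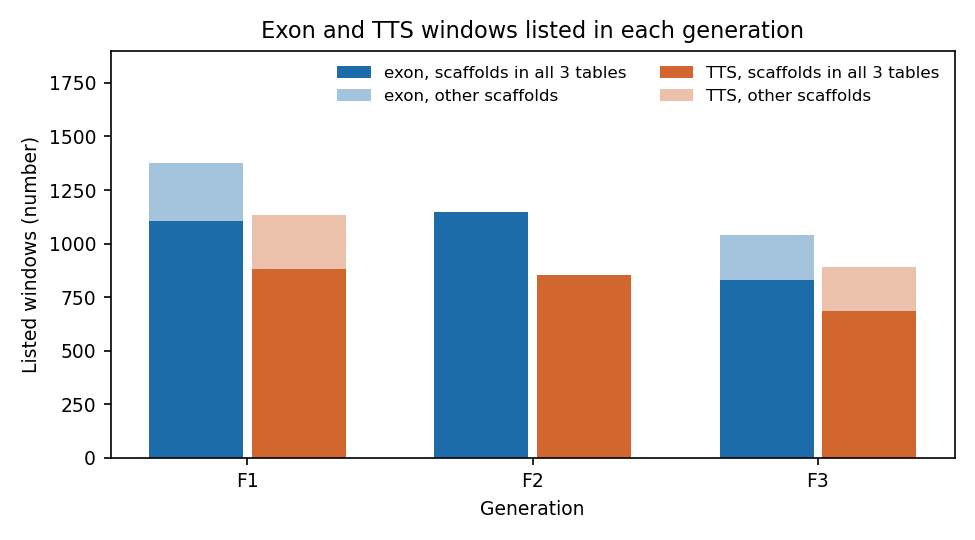
Bars give the number of listed exon (blue) and TTS (orange) windows in each generation, with windows on the 87 scaffolds found in all 3 tables in full colour and windows on other scaffolds in pale colour. All F2 windows lie on the shared scaffolds, and on those scaffolds the F2 exon bar (1149) is slightly above the F1 bar (1105).

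Exon numbers here are those of the transcript that the annotation followed, and a gene can have others. More exon windows lay in internal exons than in any other place. Internal exons held 716 of the 1377 exon windows in F1 (52.0%, 95% Wilson interval 49.4 to 54.6%), 631 of 1149 in F2 (54.9%, 52.0 to 57.8%) and 539 of 1041 in F3 (51.8%, 48.7 to 54.8%). These intervals cover counting error only, and neighbouring windows overlap, so they are too narrow. Genes with a single exon held 19.3% of the exon windows in F1 (17.3 to 21.5%), 16.6% in F2 (14.6 to 18.9%) and 20.3% in F3 (17.9 to 22.8%). The first of several exons, which carries the start of the transcript, held 282 (20.5%), 247 (21.5%) and 203 (19.5%). The last of several exons held 113 (8.21%), 80 (6.96%) and 88 (8.45%). The intervals of the 3 generations overlapped for each of these places, but the spread between animals is unknown and the generations were not tested against each other.

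Within genes of several exons, first exons were listed more often than an even spread over the exons would give, and last exons less often. Such genes held 1111 exon windows in F1, 958 in F2 and 830 in F3, and the median window lay in a gene with 12, 12 and 11 exons. If each exon of these genes had the same chance of holding the window, 14.4% of F1 windows, 14.3% of F2 windows and 15.6% of F3 windows would fall in the first exon and as many in the last. First exons held 25.4%, 25.8% and 24.5%, and last exons held 10.2%, 8.35% and 10.6%. The even spread takes no account of exon length or of where the probes lay, and the part of either was not tested. A window near a transcript end is classed as TTS, which also takes windows away from last exons. The promoter class likewise takes windows away from first exons, and no exon window lay nearer than 101 bases to a start. The median exon number was 4 in each generation, and exons 1 to 3 held 46.8%, 46.7% and 46.9% of these windows. At the other end of the range, windows were listed in exons numbered up to 71 in F1 and 107 in F2 and F3.

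**Figure D2:**
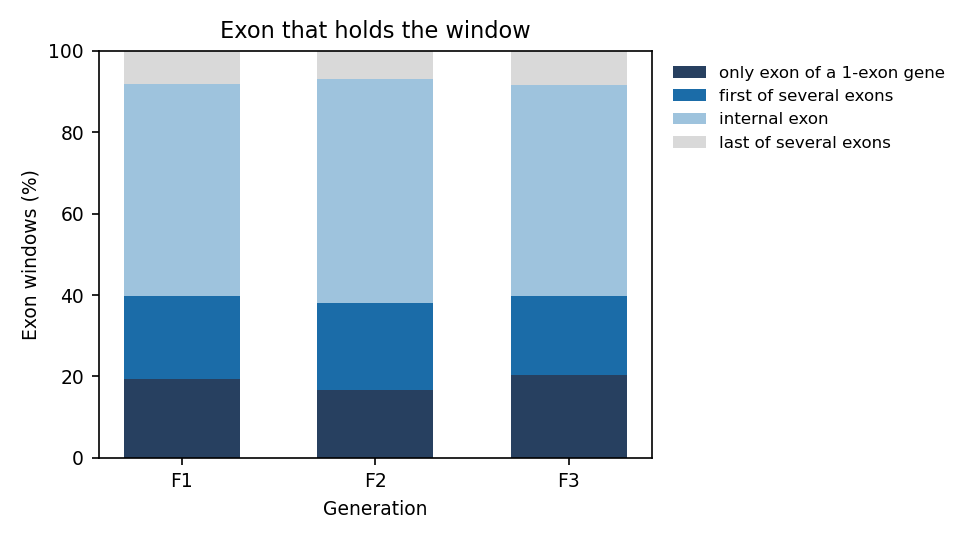
Stacked bars give the percentage of exon windows in each generation that lay in the only exon of a 1-exon gene, in the first, an internal or the last of several exons. Internal exons hold between 51.8% and 54.9% in the 3 generations and last exons between 6.96% and 8.45%.

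Exon and TTS windows lay much closer to a transcription start than intron windows did. The median distance to the nearest start was 1203 bases for exon windows in F1, 1936 in F2 and 1106 in F3. For TTS windows it was 541, 691 and 473 bases. For intron windows it was 23509.5, 25873 and 24512.5 bases. A start was within 1 kb of 48.4%, 45.9% and 49.3% of exon windows and of 57.4%, 53.1% and 60.7% of TTS windows, against 4.49%, 4.27% and 4.37% of intron windows. The probes were designed around promoters and enhancers, and the distances of windows that were measured but not listed are unknown, so the part of the probes in these distances was not tested. Gene length also bounds how far a transcript end can lie from its own start, and its part was not tested.

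The exon distances spread over several orders of magnitude. The middle range, from the lower to the upper quartile, was 265 to 13401 bases in F1, 269 to 15161 in F2 and 276 to 12714 in F3. For TTS windows the quartiles were 218 and 5316 bases in F1, 217 and 7319 in F2, and 208 and 4363 in F3. Beyond 50 kb lay 96 exon windows in F1, 87 in F2 and 69 in F3, and 28, 37 and 19 TTS windows.

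**Figure D3:**
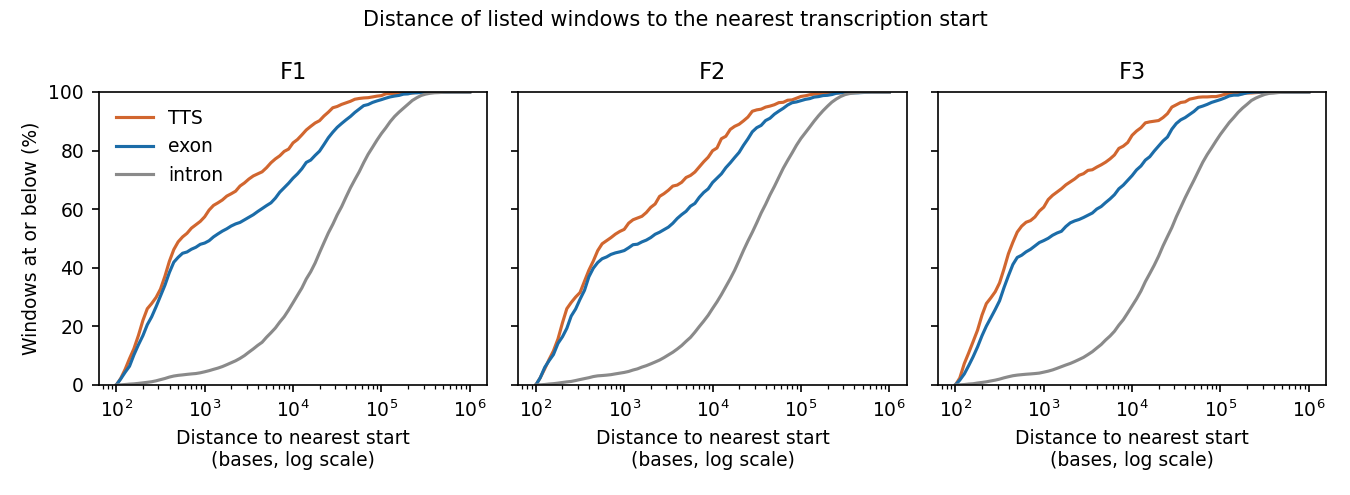
Curves give the percentage of listed windows (y axis) whose distance to the nearest transcription start is at or below the value on the x axis (bases, log scale), for TTS (orange), exon (blue) and intron (grey) windows, with 1 panel for each generation. The TTS curve lies above the exon curve at 1 kb in each panel (57.4% against 48.4% in F1), and the intron curve stays below 5% there.

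The nearest start usually belonged to the same gene as the exon or transcript end. This held for 82.6%, 79.6% and 83.2% of exon windows in F1, F2 and F3 and for 84.7%, 83.2% and 86.7% of TTS windows. Among these TTS windows the median distance from their own gene's start was 402.5 bases in F1, 442 in F2 and 395 in F3, and 56.7%, 54.4% and 58.4% were within 500 bases of it. Those more than 10 kb from their own gene's start numbered 105 in F1, 104 in F2 and 85 in F3.

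Distance from the start differed with the place of the exon. Among windows whose nearest start was that of their own gene, those in 1-exon genes lay at a median of 283.5 bases in F1, 252 in F2 and 270 in F3. Windows in the first of several exons lay at 207, 213 and 222 bases. Internal exon windows lay at 6925, 7299 and 6949 bases, with upper quartiles of 23294, 21312 and 21017. Windows in last exons lay at 1524, 2163.5 and 1328 bases, nearer to the start than internal exon windows in each generation. In F1 the windows kept here were 86 of 113 in last exons and 504 of 716 in internal exons. Windows near a transcript end also count as TTS, and the part of this selection in the order was not tested.

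The members were spread thinly over many genes. Exon windows fell in 1052 genes in F1, 870 in F2 and 780 in F3, and TTS windows in 919, 703 and 737. A gene with exon windows had a single one in 76.7%, 77.2% and 76.2% of cases, and a gene with TTS windows in 81.3%, 81.9% and 82.5%. Genes with 3 or more exon windows numbered 56, 49 and 47, and those with 3 or more TTS windows 31, 18 and 21. Exon and TTS windows were both listed for 40 genes in F1, 36 in F2 and 39 in F3. These were 3.80%, 4.14% and 5.0% of the exon genes and 4.35%, 5.12% and 5.29% of the TTS genes. How many genes would hold both if the classes were listed independently was not tested.

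Windows of other classes in the same gene were common for exon genes and less so for TTS genes. Of the genes with exon windows, 37.3%, 38.0% and 34.9% also had a listed intron window and 115, 87 and 85 of the genes a listed promoter window. Of the genes with TTS windows, 12.9%, 15.1% and 10.9% also had an intron window and 13.9%, 11.5% and 13.4% a promoter window. No window of another class was listed for 54.2%, 53.6% and 55.1% of exon genes and for 72.7%, 73.0% and 75.4% of TTS genes. The part of gene length in these shares was not tested.

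Along the DNA the members were mostly single windows, as were listed windows of the other classes. After windows of the same class that overlap or touch were merged, the exon windows gave 1144 regions in F1, 962 in F2 and 856 in F3, of which 81.7%, 82.9% and 81.4% were 1 window. TTS windows gave 967, 732 and 771 regions, of which 84.9%, 84.7% and 85.5% were 1 window. For promoter windows the shares were 80.0%, 78.0% and 79.9%, for intron windows 79.2%, 79.4% and 78.7%, and for intergenic windows 78.5%, 78.6% and 78.7%. The longest exon region spanned 450 bases, in F3, and the longest TTS region 400 bases, in F1. Exon windows that shared bases with another listed window of any class made up 35.1%, 34.5% and 39.0%, and TTS windows 28.5%, 26.96% and 25.5%. This share was not computed for the other classes.

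Single CpGs were listed in separate tables, with 90611 in F1, 46492 in F2 and 74064 in F3. TTS windows held a listed CpG more often than exon windows did. At least 1 listed CpG lay in 199 of 1134 TTS windows in F1 (17.5%), 131 of 853 in F2 (15.4%) and 154 of 893 in F3 (17.2%). For exon windows it was 88 of 1377 (6.39%), 80 of 1149 (6.96%) and 83 of 1041 (7.97%). Promoter windows stood at 12.99%, 10.4% and 15.3%, intron windows at 5.28%, 5.73% and 6.51% and intergenic windows at 7.65%, 7.11% and 9.32%. The TTS share was thus above that of each of these 4 other classes in all 3 generations. The number of CpGs that could be measured in a window is not in the tables, so its part in these shares was not tested. Windows with 3 or more listed CpGs numbered 36, 13 and 32 among TTS windows and 19, 6 and 19 among exon windows.

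How the windows lay is shown for 13 genes, the 8 with the most members among genes listed in at least 2 generations and the 4 with the most in each generation, some of which are the same. The tables name genes by Ensembl identifier, and no symbol could be paired with them, so no function is given. Gene ENSCPOG00000011125, on scaffold_30, held most. Of its 28 exons, 6 were hit in F1 by 6 windows, 6 in F2 by 16 windows and 5 in F3 by 10 windows. All 32 were exon windows. Exons 1, 3, 5 and 11 were hit in each generation, exon 10 in F1 and F2, and exons 2, 6 and 7 in F3, F1 and F2 respectively. The windows formed 1 group within 5426 bases of the nearest start and another between 23276 and 27126 bases from it.

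The same gene also held windows that recurred. Its 32 windows stood for 24 positions, of which 6 were listed in at least 2 generations and 2 in all 3. The recurring pair were scaffold_30:3113101-3113200, in exon 3 and 1626 bases from the start, and scaffold_30:3111001-3111100, in exon 5 and 3726 bases from it. In each generation 3 intron windows of this gene were listed as well.

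**Figure D4:**
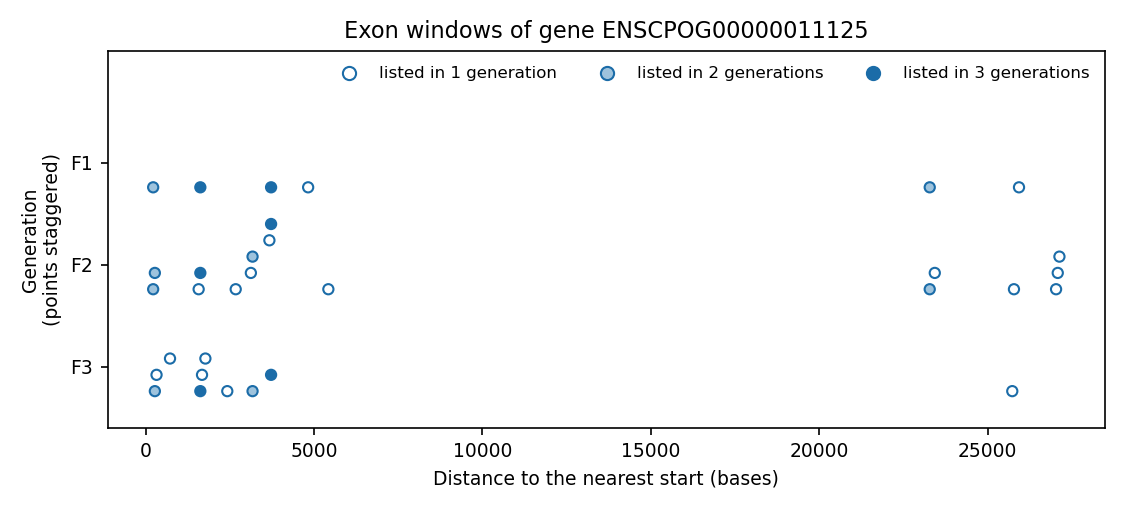
Points give the exon windows of gene ENSCPOG00000011125 by distance to the nearest transcription start (x axis, bases) and generation (y axis), staggered where they crowd, and shaded by the number of generations in which the position was listed. The 2 positions listed in all 3 generations lie 1626 and 3726 bases from the start, and another group of windows begins at 23276 bases.

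A pair of other genes with exon windows in every generation had many exons. ENSCPOG00000007886, with 42 exons on scaffold_23, held 4 exon windows in F1, 6 in F2 and 5 in F3, and exon 33 was hit in each. All of its exon windows lay at least 10168 bases from the nearest start. It also held 25, 38 and 26 listed intron windows, and 2 promoter windows in F2. ENSCPOG00000004438, with 54 exons on scaffold_18, held 3, 6 and 1 exon windows, and only 1 of its 9 positions recurred.

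In some genes windows of both classes were listed. ENSCPOG00000020011, on scaffold_41, had 1 TTS window in F1, 5 in F2 and 1 in F3 beside 2, 3 and 2 exon windows, and none of its exon windows recurred at the same position. Its windows were numbered on a transcript of 23 exons and on one of 15, so its exon numbers cannot be compared between generations. ENSCPOG00000026345, with 22 exons on scaffold_68, had 3 exon windows in F1, 4 in F2 and 3 in F3, with 2 TTS windows in F3 only, and exon 10 was hit in each generation. Promoter windows of this gene numbered 11 in F1 and 2 in F2. ENSCPOG00000008926, with 24 exons on scaffold_8, held 4 windows in F1 and 5 in F2, with exons 8 and 16 hit in both, and 2 windows in F3, in exons 4 and 20. ENSCPOG00000003811, with 14 exons on scaffold_17, held 5 exon windows and 1 TTS window in F1 and 2 exon windows each in F2 and F3, all at least 157243 bases from the nearest start, among 113, 103 and 61 intron windows. ENSCPOG00000012058, with 27 exons on scaffold_33, held 4 TTS and 2 exon windows in F3, 1 exon window in F1 and none in F2.

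ENSCPOG00000000657 was annotated with a single exon. That exon, on scaffold_52, held 3 windows in F1, 3 in F2 and 5 in F3, all between 266 and 616 bases from the start. They stood for 7 positions, and 4 of these were listed in 2 generations. The 5 windows of F3 merged into a single region.

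For 4 of the 13 genes the scaffold was not among those of the F2 table, so nothing can be read from the lack of F2 windows. ENSCPOG00000022447, with 24 exons on scaffold_390, held 5 members in F1 and 8 in F3, of which 1 and 5 were TTS windows. Promoter windows of this gene numbered 8 in F1 and 1 in F3. ENSCPOG00000000102, with 61 exons on scaffold_101, held 5 and 7 exon windows, with exons 32 and 39 hit in both generations. ENSCPOG00000008504, with 38 exons on scaffold_107, held 8 members in F1 and 2 in F3, and no position recurred. ENSCPOG00000022509, on scaffold_2369, held 8 TTS windows in F1, between 148 and 698 bases from the start, and none in F3. Promoter windows of it were listed in both generations, 3 in F1 and 1 in F3.

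Few members were listed at the same position in more than 1 generation. F1 and F2 shared 134 exon windows, which were 9.73% of the F1 list and 11.7% of the F2 list. F1 and F3 shared 150 (10.9% and 14.4%), and F2 and F3 shared 115 (10.01% and 11.1%). TTS windows common to F1 and F2 numbered 140, or 12.3% and 16.4% of the lists. Those common to F1 and F3 were 12.1% and 15.3%, and those common to F2 and F3 were 13.4% and 12.8%. Windows of F1 on scaffolds that the F2 table lacks could not recur there. On the scaffolds of all 3 tables, 12.1% of F1 exon windows and 15.9% of F1 TTS windows were also listed in F2, and 11.6% and 11.4% in F3. Of all 3196 exon positions 343 were listed in at least 2 generations (10.7%), and of all 2518 TTS positions 333 (13.2%). The same share was 12.6% for promoter, 11.7% for intron and 11.6% for intergenic positions, and 11.6% for all listed positions. How often windows would recur without any treatment is not known from these lists, and the differences between classes were not tested.

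**Figure D5:**
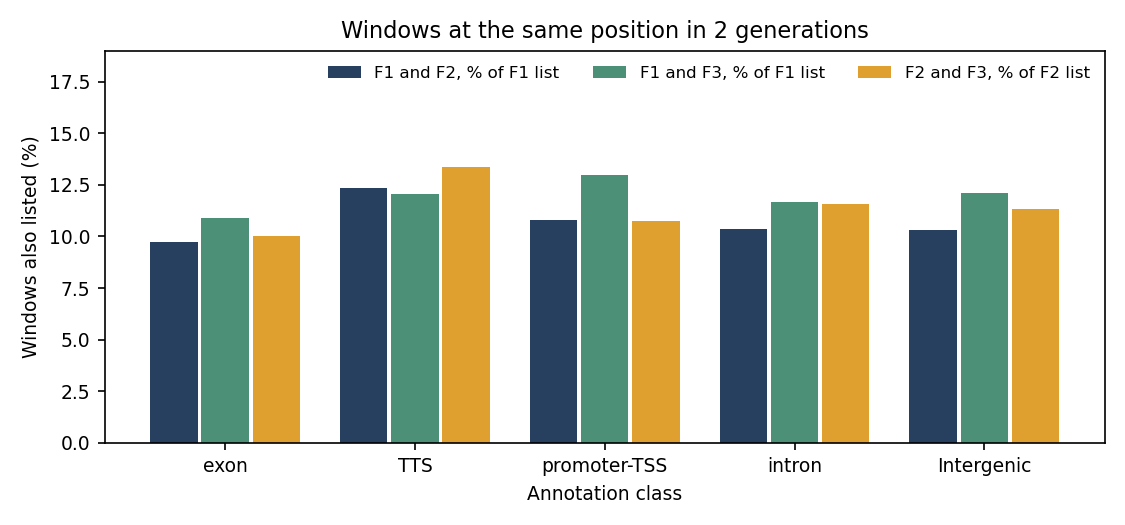
Bars give, for each annotation class, the percentage of windows of the first named generation that were listed at the same position in the other. TTS windows lie between 12.1% and 13.4% and exon windows between 9.73% and 10.9%.

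Counted by gene at any position, the overlap was larger, with 25.2% of the F2 exon genes and 25.5% of the F2 TTS genes also listed in F3. Exon windows were listed for 2058 genes in any generation, for 546 in at least 2 and for 98 in all 3, and 73.5% of the 2058 genes appeared in 1 generation only. TTS windows were listed for 1800 genes, for 481 in at least 2 and for 78 in all 3, and 73.3% appeared once. Genes with promoter windows stood at 72.7% and genes with intron windows at 40.6%, and over genes of all 4 classes the share was 46.0%. Genes on scaffolds that the F2 table lacks could not appear in F2. On the scaffolds of all 3 tables, the genes listed in 1 generation only were 72.1% for exon, 71.8% for TTS and 71.6% for promoter windows, and 43.6% over all 4 classes. These differences between classes were not tested.

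In all 3 generations 57 members were listed at the same position, 28 of them exon windows in 25 genes and 29 of them TTS windows in 28 genes. Of the exon windows 18 lay in internal exons, 4 in the first of several exons, 4 in 1-exon genes and 2 in last exons. Their distances to the nearest start were wide apart, from 130 bases for ENSCPOG00000021657 (exon 1 of 2, scaffold_24:5662151-5662250) to 101109 bases for ENSCPOG00000011054 (exon 15 of 16, scaffold_11:27451001-27451100). Adjacent windows were listed in ENSCPOG00000003912 (exon 11 of 13, scaffold_0:85386251-85386350 and the next window) and in the 1-exon gene ENSCPOG00000023510 (scaffold_19:22878101-22878200 and the next window).

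The TTS windows of all 3 generations lay nearer to starts than those of a single generation. The median distance was 635 bases for the 2185 TTS positions listed once, 463 for the 304 listed in 2 generations and 189 for the 29 listed in 3. The shares within 1 kb were 54.5%, 63.5% and 79.3%, or 23 of 29 windows for the last. Exon windows did not follow this order, with medians of 1206, 1880 and 3059 bases and shares of 48.3%, 47.3% and 35.7%, the last being 10 of 28 windows. Among the recurring TTS windows near a start were those of ENSCPOG00000029744, 123 bases away at scaffold_2:11221101-11221200, and ENSCPOG00000029756, 126 bases away at scaffold_6:25743901-25744000. ENSCPOG00000023787, on scaffold_25, was the gene with 2 of the 29 windows, at 384 and 434 bases. A few lay far from any start, such as that of ENSCPOG00000009603 at 113442 bases on scaffold_39. The 29 and 28 windows are few, and no test of these orders was made. Positions listed in all 3 generations can lie only on the scaffolds found in all 3 tables, whereas those listed in fewer also lie on other scaffolds.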

How the data were processed

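Hippocampal DNA and RNA of 72 labelled samples were deposited, 36 of them for methylation. Per the labels and the methods, the authors trimmed reads with Trimmomatic 0.32, aligned them to cavPor3 with BSMAP 2.74, removed duplicates with Picard 1.93, compared windows and CpGs between groups with methylKit 1.4.0 in R 3.2.3, and annotated them with HOMER 4.6. The deposited methylation tables hold positions and annotation, used here, and the authors' comparison (p-values, q-values and differences in percent methylation), of which none was used except to find the smallest difference listed. Depth and values per animal were not used here.

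Windows were taken by annotation class. The first base is numbered 1 higher in the F2 and F3 window tables, and CpGs 1 higher in the F1 table, so positions were brought to 1 numbering, counted from 1, by the last base. Counts, Wilson intervals (95%, scipy 1.17.1), merging and overlaps were computed with Python 3.11.15, numpy 2.4.6 and pandas 2.3.3, and figures with matplotlib 3.10.9. The interval and merging code was tested on simulated data. Named genes were the 8 with the most member windows among genes listed in at least 2 generations, and the 4 with most in each generation. The genes shown for windows of all 3 generations were chosen after their values were seen, and the gene overlap of other classes was added after seeing the data. Members, lists and alternatives were chosen with earlier results of these data known. The RNA counts name genes by symbol, and the tables used here do not pair symbols with the Ensembl identifiers of the windows, so the planned RNA comparisons, gene lists and marker checks were not made. Alternatives were other units, scaffolds and rules of overlap.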

Additional observations from a re-analysis of the deposited data

How the results depend on the processing

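Of 60 values recomputed under alternatives, 39 moved by less than their counting error or 1.5 times, but the order of the generations was not kept. The 39 include the F2 values on the scaffolds found in all 3 tables, which could not move, since the F2 table holds no other scaffold. Counting recurrence in any annotation class of the other generation left each share exactly as it was, and these shares are also among the 39. Restricting to scaffolds with at least 1% of the listed windows left 752 exon and 628 TTS windows in F1, 830 and 623 in F2, and 539 and 469 in F3. F2 exon windows then outnumbered those of F1, and F2 TTS windows those of F3. The limit was set within each list and kept 30 scaffolds in F1, 36 in F2 and 30 in F3, so these counts cover unlike scaffolds. On the scaffolds found in all 3 tables the same orders were seen (1149 against 1105, and 853 against 686). All listed windows there numbered 40857 in F1, 41660 in F2 and 34681 in F3. Counting windows that share at least 1 base, the exon windows also listed elsewhere became 16.2% (F1 in F2), 17.1% (F1 in F3) and 18.02% (F2 in F3), and the TTS windows 18.2%, 18.6% and 20.3%. Counted as genes at any position, they came to 25%, 24.7% and 25.2% for exons and 24.7%, 25.1% and 25.5% for TTS. With 1 window per gene, 56.5% of F2 and 64.2% of F3 TTS windows lay within 1 kb of a start. On the scaffolds found in all 3 tables, an alternative chosen after seeing the data, the F3 value was 64.1%, and 12.1% of exon and 15.9% of TTS windows of F1 were also listed in F2.

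No paired analysis was possible because the methylation tables hold no value per animal and no test was made. The RNA alternatives and the base content of the windows were not run, for want of paired gene names and of a genome. Listing itself depends on the authors' comparison of the groups, and the rule that set the lists is not known. Windows that were not measured cannot be told apart from windows that were measured and not listed. Read depth is unknown.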

Other observations

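Some exon and transcript end windows lay nearest to the start of a gene other than the one they were annotated to. This was so for 17.4% of exon windows in F1, 20.4% in F2 and 16.8% in F3, and for 15.3%, 16.8% and 13.3% of TTS windows. Windows on the upstream side of their nearest start made up 9.22%, 12.01% and 9.89% of exon windows. For TTS windows the shares were 7.67%, 8.44% and 6.72%, and for promoter windows 78.8%, 78.5% and 77.6%. The promoter class is itself given by the place of a window near a start, and no exon or TTS window lay nearer than 101 bases. The contrast of exon and TTS windows with promoter windows is thus set in part by the classes, and the size of that part was not tested. Members of both classes that bordered on a promoter window were few, with 25, 23 and 15 exon windows and 22, 9 and 15 TTS windows overlapping one.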
